A study of Mus musculus with 48 samples.

Results

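The miR-199 and miR-214 family was followed in small RNA libraries of the embryonic mouse ovary, separated into germ cells and somatic cells. Its members were taken by name from the authors' table of mature miRNAs. Of 6 names looked for, 5 had a row among the 563 miRNAs of the table: mmu-miR-199a-5p, mmu-miR-199b-5p, mmu-miR-199b-3p, mmu-miR-214-3p and mmu-miR-214-5p, given below without the mouse prefix. The remaining name, mmu-miR-199a-3p, was not analysed here as a row of its own, and its mature sequence is identical with that of miR-199b-3p.

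The 48 libraries came from gonads of wild-type CD1 female embryos at embryonic day 13.5 and formed 24 groups of 2 libraries, by cell fraction, exposure and generation class. Primordial germ cells (PGC, 24 libraries) were bound with anti-CD15 antibodies on paramagnetic beads from pools of about 80 gonads cleared of mesonephros, and the somatic stromal cells (SC, 24 libraries) were the remaining fraction. By staining, PGC made up 93 to 96% of their fraction and SC over 90% of theirs, per the labels. Pregnant females of the founding generation had received 1 of 3 treatments in the drinking water over the first 13 days of pregnancy: MEHP, a phthalate monoester, at 35 mg/kg body weight daily; vinclozolin (VZN), a fungicide with antiandrogenic metabolites, at 50 mg/kg body weight daily; or the vehicle alone (control). All 3 treatments held DMSO at 0.3%. F1 embryos were exposed in the womb, F2 and F3 embryos had exposed female ancestors, and F2Sy embryos were bred to combine exposure of both progenitors to the same disruptor. Nothing in the labels tells if a group's 2 libraries are separate litters, pools or repeats, so every p-value reflects library-to-library spread that may be purely technical.

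miRNAs of this family are processed from hairpins on the opposite strand of the dynamin genes, and each hairpin can give a mature strand from its 5′ arm (5p) and one from its 3′ arm (3p). The miR-199a and miR-214 hairpins of the Dnm3 locus lie on a shared long non-coding transcript, Dnm3os, which the mesenchymal factor Twist1 can drive. The family is best known from mesenchyme, fibroblasts and the developing skeleton, where its strands repress many messenger RNAs through pairing of the seed, bases 2 to 8 of the mature strand.

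The mature sequences in RefSeq (build GRCm38.p6) are shown because they set which members can be told apart in a read table and which share a seed. They run 5′ to 3′, with the seed in capitals.
miR-199a-5p: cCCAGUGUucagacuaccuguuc
miR-199a-3p: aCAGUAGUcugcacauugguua
miR-199b-3p: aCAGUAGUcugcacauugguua
miR-214-3p: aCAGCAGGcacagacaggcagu
miR-214-5p: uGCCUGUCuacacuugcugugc
miR-199a-3p and miR-199b-3p agree in all 22 bases and share the seed caguagu, so the row named miR-199b-3p can hold reads from the 3p arm of any of the miR-199 hairpins. The seed of miR-214-3p, cagcagg, differs from it and is shared in RefSeq with miR-761. miR-199a-5p and miR-214-5p each have a seed that no other mouse entry listed in RefSeq carries. RefSeq entries were found for 5 of the 6 names, and miR-199b-5p had none, so its seed is not among those compared.

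The hairpins show where the strands lie, with the mature strands listed in RefSeq in capitals.
Mir199a-2: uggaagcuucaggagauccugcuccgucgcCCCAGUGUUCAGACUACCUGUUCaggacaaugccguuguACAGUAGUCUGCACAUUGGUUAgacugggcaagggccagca
Mir199a-1: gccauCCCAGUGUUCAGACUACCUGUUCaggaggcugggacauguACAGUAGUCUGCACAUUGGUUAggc
Mir199b: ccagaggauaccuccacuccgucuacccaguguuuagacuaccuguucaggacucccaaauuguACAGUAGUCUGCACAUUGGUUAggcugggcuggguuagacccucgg
Mir214: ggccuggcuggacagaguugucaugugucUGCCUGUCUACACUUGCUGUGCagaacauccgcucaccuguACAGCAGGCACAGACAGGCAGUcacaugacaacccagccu
Mir199a-2 lies at chr1:162217814-162217923 on the plus strand and Mir214 at chr1:162223368-162223477 on the same strand, 5445 bases from the end of the first to the start of the second (GRCm38.p6). Both fall in exons of Dnm3os, antisense within Dnm3, in the GENCODE annotation of that build. Mir199a-1 lies at chr9:21496495-21496564 on the minus strand, within Dnm2 and antisense to it. Mir199b lies at chr2:32318460-32318569 on the plus strand, within Dnm1 and antisense to it. Neither of these 2 overlaps an annotated exon of its host. The stretch of the Mir199b hairpin at its bases 26 to 48 matches miR-199a-5p except for 1 of 23 bases, C10U, counted from the 5′ end of miR-199a-5p. That base lies outside the seed, so the stretch holds the same seed as miR-199a-5p. The authors' counts carry no coordinates, and the submitters' processing notes name another build, mm39.

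The table left 7089 of 27024 cells blank and held no 0, and the rule behind the blanks was not stated. Totals of listed counts ran between 2932091 and 7946140 in PGC libraries and between 7460018 and 11761591 in SC libraries, and levels are given as counts per 1000000 listed counts (CPM). The smallest listed value was 18.7 to 37.9 CPM in PGC and 12.6 to 15.7 CPM in SC libraries. Outside the fits with filled blanks, a blank was read as missing, neither as 0 nor as a level under the smallest listed value. A sum over several miRNAs covers their listed cells only, so a blank adds nothing to it. In control PGC F3 replicate 1 miR-214-5p was listed at 37.9 CPM while miR-214-3p, the higher strand in most libraries, was blank. All 5 members were listed in all 24 SC libraries. In PGC libraries miR-199a-5p and miR-199b-3p were listed in all 24, miR-214-3p in 19, miR-214-5p in 10 and miR-199b-5p in none. The PGC library with the fewest counts was VZN F2Sy replicate 2, and the SC library with the fewest listed miRNAs was MEHP F3 replicate 1.

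In somatic cells the family was abundant and one strand made up most of it. The 5 members together held 2.45 to 5.13% of the listed counts of an SC library, with a median of 4.24%. miR-199b-3p, the 3p strand shared in sequence by the miR-199 genes, ranked 7 of the 355 miRNAs listed in every SC library and made up a median of 76.0% of the family's counts. miR-199a-5p ranked 33, miR-214-3p ranked 61, miR-214-5p ranked 201 and miR-199b-5p ranked 285. All levels are read counts of strands of nearly equal length, and how evenly the strands were captured was not tested.

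miR-199b-3p ranged between 14064 and 39968 CPM in the 8 MEHP SC libraries (median 32226), between 25646 and 33837 CPM in the 8 VZN SC libraries (median 31977) and between 25047 and 36038 CPM in the 8 control SC libraries (median 33275). The 3 ranges overlapped, and the lowest value belonged to MEHP F3 replicate 1. miR-199a-5p, the 5p strand of the miR-199a genes, ranged between 5059.5 and 7775 CPM in MEHP (median 7252), between 4236 and 7653 CPM in VZN (median 6652) and between 5048 and 8072 CPM in control SC libraries (median 6352), again with overlap.

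The strands of Mir214 and the 5p strand of Mir199b were lower. miR-214-3p, the more abundant strand of Mir214, ranged between 2251 and 4408 CPM in MEHP (median 2835), between 1388 and 8994 CPM in VZN (median 2647) and between 1552 and 5686 CPM in control SC libraries (median 2994). Its highest library, VZN F3 replicate 2, stood at 8994 CPM and the next VZN library at 3929 CPM, and the ranges of the 3 exposures overlapped. miR-214-5p, the opposite strand, averaged 285 ± 43.4 CPM in MEHP, 267 ± 52.8 CPM in VZN and 271 ± 45.7 CPM in control SC libraries (SD, n = 8 each). miR-199b-5p averaged 100.5 ± 16.3 CPM in MEHP, 89.6 ± 19.8 CPM in VZN and 102 ± 26.2 CPM in control SC libraries (SD, n = 8 each). For neither did the exposures separate.

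The order of the 5 levels was the same in nearly every somatic library. miR-199b-3p exceeded miR-199a-5p in 24 of 24 SC libraries, by 1.92 to 6.60 times. miR-199a-5p exceeded miR-214-3p in 23 of 24, the exception being VZN F3 replicate 2. miR-214-3p exceeded miR-214-5p in 24 of 24, and miR-214-5p exceeded miR-199b-5p in 24 of 24, by 2.18 to 4.03 times. The 5p strand of miR-199a was 52.7 to 85.3 times that of miR-199b.

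**Figure D1:**
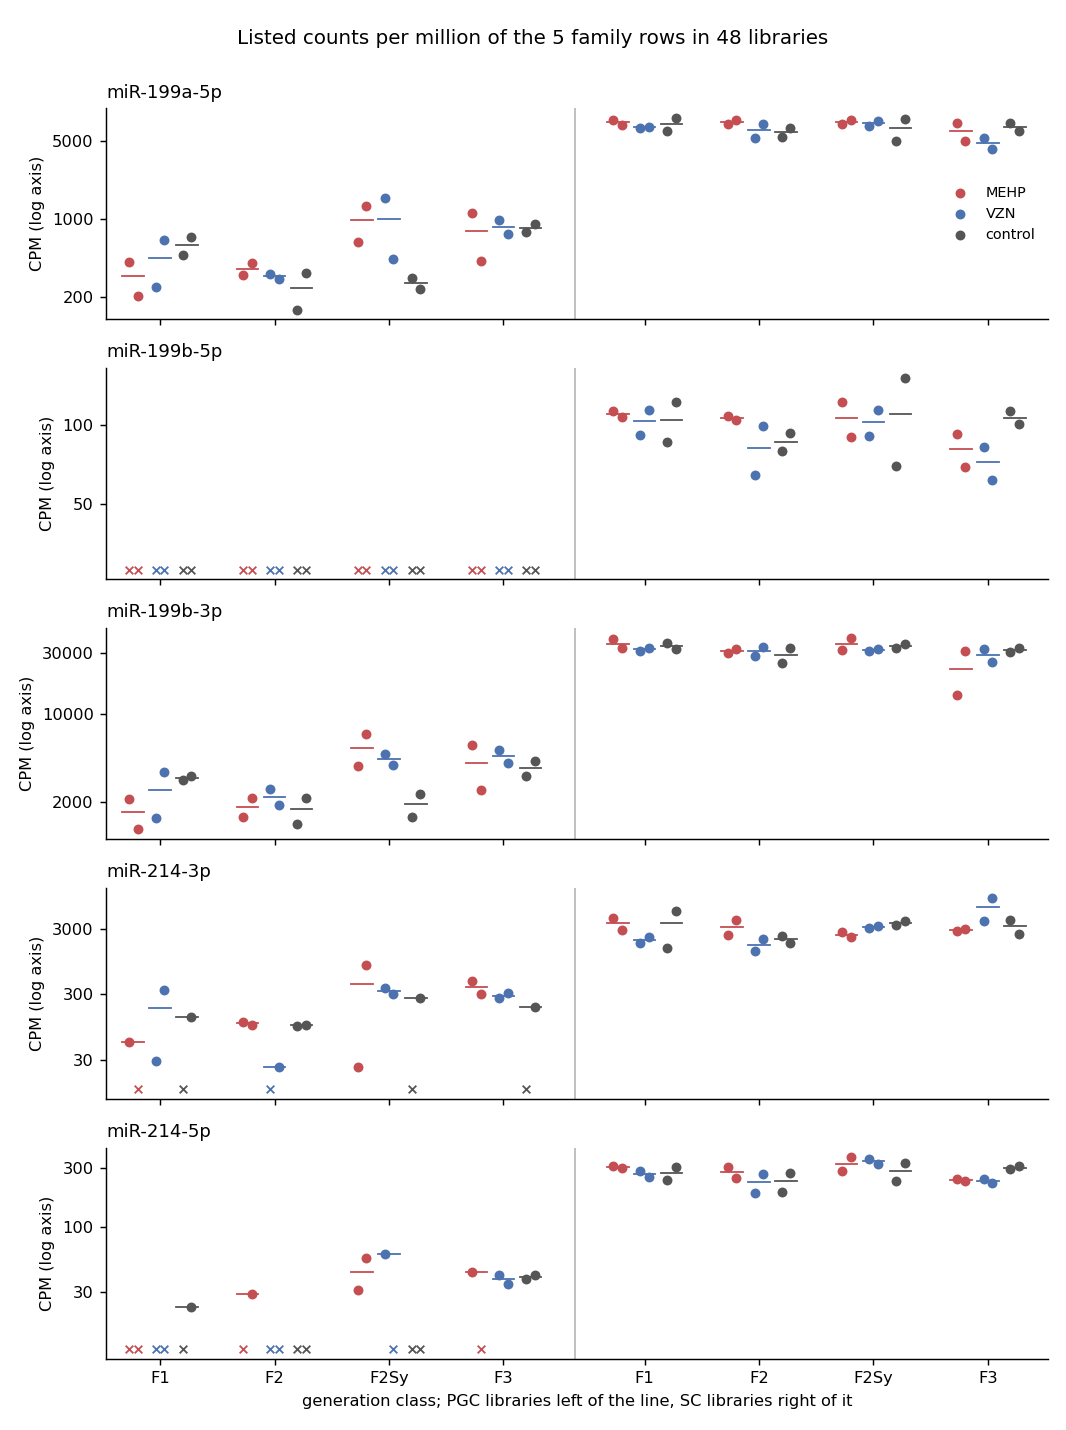
Level of each of the 5 members in CPM (log axis) in every library, with PGC libraries on the left, SC libraries on the right and generation classes in order; points are libraries, bars the mean of the listed libraries of a group, and crosses at the foot of a panel mark blank cells, which have no value. The PGC libraries of miR-199a-5p and miR-199b-3p sit below all SC libraries, and miR-199b-5p is blank in all 24 PGC libraries.

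The family took a much smaller share of germ cell libraries than of somatic ones, and both strands that could be tested were lower in PGC under every exposure. The members together held 0.141 to 0.909% of the listed counts of a PGC library, with a median of 0.332%. miR-199a-5p averaged 480 ± 275 CPM in control PGC and 6576 ± 1103 CPM in control SC libraries (SD, n = 8 each), and miR-199b-3p averaged 2608 ± 964 CPM in control PGC and 32470 ± 3439 CPM in control SC libraries (SD, n = 8 each). Over all exposures the highest PGC library of miR-199a-5p held 1553 CPM and the lowest SC library 4236 CPM, and for miR-199b-3p these were 6878 and 14064 CPM, so the fractions did not overlap for either. The share of all miRNAs without overlap between the fractions was not computed.

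In control libraries miR-199a-5p had a log2 fold change, PGC over SC, of -3.87 ± 0.27 (SE; adjusted p = 3.21e-14, edgeR quasi-likelihood test with Benjamini-Hochberg adjustment over 251 miRNAs), and miR-199b-3p of -3.61 ± 0.21 (adjusted p = 4.88e-16). Both members tested were called lower, against 42.2% of all 251 miRNAs, and they ranked 4 and 10 from the lowest. The same direction was called in the MEHP lineage, with -3.65 ± 0.26 for miR-199a-5p and -3.37 ± 0.21 for miR-199b-3p (edgeR adjusted p = 9.90e-14 and 1.73e-15), where 42.6% of miRNAs were called lower. It was also called in the VZN lineage, with -3.37 ± 0.26 and -3.24 ± 0.20 (edgeR adjusted p = 5.10e-13 and 4.63e-15), where 42.6% of miRNAs were called lower. Each lineage used its own 16 libraries and its own controls for fraction, in 1 fit of all 48 libraries. Scaling by library size alone moved the median of all miRNAs in the control comparison by -0.11 on the log2 scale, from a value of 0.09, and left both members called.

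The fraction difference of the 2 strands was not shown to change with exposure. Relative to control, it was 0.22 ± 0.34 (miR-199a-5p) and 0.24 ± 0.26 (miR-199b-3p) log2 units less negative in the MEHP lineage, and 0.50 ± 0.34 and 0.37 ± 0.26 less negative in the VZN lineage. edgeR called 0 members and 0% of 251 miRNAs in each of these comparisons and in the joint test of both exposures, 0 members had an unadjusted p under 0.05, and DESeq2 called 0 miRNAs in the 2 single comparisons. Without VZN PGC F2Sy replicate 2 edgeR called 4 of 251 miRNAs for the VZN lineage, no member among them.

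The other 3 members could not be tested between fractions on listed counts alone. miR-199b-5p had no listed PGC value, so any fitted difference would follow from the value put in its place, and none is given. For the miR-214 strands, fits with blanks filled, chosen after the data were seen, depended on the filling. miR-214-3p was listed in 5 of 8 control PGC libraries, and its control log2 fold change, PGC over SC, was -4.90 ± 0.61 with blanks at the smallest listed count of the library and -5.09 ± 1.21 with blanks as 0 (edgeR adjusted p over 563 miRNAs = 1.80e-08 and 5.00e-04). miR-214-5p was listed in 3 of 8 control PGC libraries, and its values were -3.35 ± 0.18 and -8.88 ± 1.47, of which neither is an estimate from listed counts. In the MEHP lineage miR-214-3p had -4.25 and -4.37 under the 2 fillings, and in the VZN lineage -4.35 and -4.66.

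Where they were listed, both miR-214 strands stood below every somatic library. miR-214-3p had a median of 114 CPM in 7 listed MEHP libraries (23.4 to 836), 302 CPM in 7 listed VZN libraries (23.6 to 369) and 136 CPM in 5 listed control libraries (100.1 to 264) among PGC, while the lowest SC library held 1388 CPM. miR-214-5p was listed between 22.6 and 60.0 CPM in 10 PGC libraries, close to the smallest listed values, and its lowest SC library held 189 CPM. Both strands were listed in 9 PGC libraries, the 3p strand alone in 10, the 5p strand alone in 1 and neither in 4.

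Marker miRNAs gave the fractions the following make-up in the control comparison. Of 16 germ cell miRNAs of the miR-290 and miR-302 clusters, which embryonic stem and germ cells express, 12 were tested and 12 were higher in PGC (median log2 fold change 4.72; median of all miRNAs tested 0.09). Of 16 other mesenchymal miRNAs in the table, 13 were tested, 10 lower and 3 higher in PGC (median -2.57). Germ cell miRNAs summed to 154121 to 252835 CPM in PGC and 3595 to 20031 CPM in SC libraries. The gonadal somatic miR-202 strand tested was lower (-4.29), as were the endothelial (-1.96) and erythroid (-2.59) miRNAs tested, 1 of each list. The leukocyte miRNA tested was not called (0.42), 1 of 4 epithelial miRNAs was higher (list median 0.27), the neural miRNA tested was higher (4.79), and no muscle miRNA could be tested.

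Lists of somatic cell types differed in how much of their SC level the PGC libraries held. Over all 24 libraries of each fraction, the mean level in PGC was 8.69% of that in SC for miR-199a-5p and 9.70% for miR-199b-3p. The summed lists stood at 5.36% for gonadal somatic (1158 to 11872 CPM in PGC and 30658 to 102139 CPM in SC), 14.4% for erythroid (961 to 6686 CPM and 8778 to 86158 CPM), 22.5% for other mesenchymal (26714 to 45280 CPM and 139844 to 175964 CPM) and 22.8% for endothelial miRNAs (2271 to 11495 CPM and 16721 to 30782 CPM). Leukocyte, epithelial and muscle lists were instead higher in PGC, at 359%, 171% and 592% of the SC mean, and the neural list averaged 6163 CPM in PGC libraries and 229 CPM in SC libraries. Listed in every SC library were 1 of 5 leukocyte, 4 of 6 epithelial, 1 of 3 neural and 0 of 3 muscle miRNAs. Blanks added nothing to these sums, and the muscle list averaged 28.1 CPM in SC libraries, near the smallest listed values. Of 16 other mesenchymal miRNAs 1 was blank in every PGC library. The part of remaining somatic cells in the PGC values of the family was not tested. In bulk libraries fewer cells of a type and less RNA per cell cannot be told apart.

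**Figure D2:**
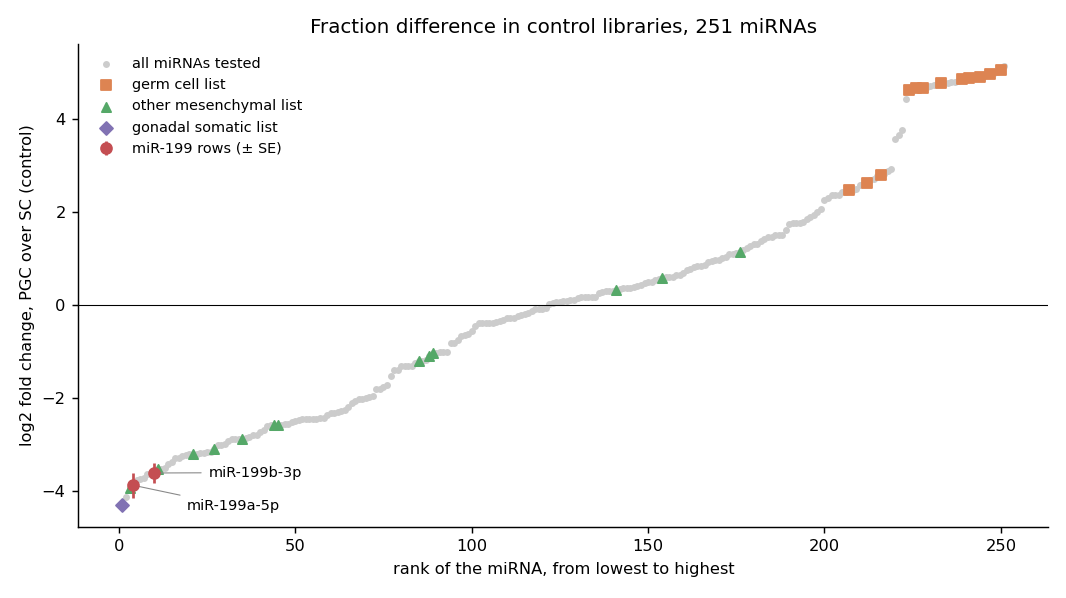
Log2 fold change, PGC over SC, of the 251 miRNAs listed in every library (control groups, edgeR), ranked from lowest to highest; bars on the 2 miR-199 rows are SE. miR-199a-5p (-3.87) and miR-199b-3p (-3.61) stand at ranks 4 and 10, near the low end, 10 of 13 other mesenchymal miRNAs lie below 0, and the 12 germ cell miRNAs stand at the high end.

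The balance of the opposite strands was next compared in each library, since a ratio of 2 rows of a library does not depend on how libraries are scaled. The ratio of miR-199b-3p to miR-199a-5p had a median of 5.29 in MEHP (4.84 to 6.11), 5.85 in VZN (3.07 to 9.01) and 5.75 in control PGC libraries (4.19 to 9.75). In SC libraries it had a median of 4.58 in MEHP (1.92 to 6.16), 4.86 in VZN (4.27 to 6.09) and 4.84 in control (4.01 to 6.60). The ranges overlapped in both fractions. The lowest ratio, 1.92, was that of MEHP SC F3 replicate 1, in which miR-199b-3p was low at 14064 CPM and miR-199a-5p stood at 7330 CPM.

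The ratio of miR-214-3p to miR-214-5p had a median of 10.6 in MEHP (6.20 to 16.4), 8.76 in VZN (6.48 to 40.0) and 12.0 in control SC libraries (6.45 to 18.8). The highest, 40.0, was that of VZN SC F3 replicate 2. In the 9 PGC libraries that listed both strands it ran from 0.761 to 14.9, and in MEHP PGC F2Sy replicate 1 the 3p strand, at 23.4 CPM, fell short of the 5p strand, at 30.8 CPM. Of 15 comparisons of 6 ratios, none passed an exact permutation test within generation classes, two-sided: every Benjamini-Hochberg adjusted p was 0.980. The smallest unadjusted exact permutation p was 0.164, for miR-199b-3p over miR-199a-5p in PGC against SC of the control group (mean log2 difference 0.27; 6.25 ± 2.05 in PGC and 5.04 ± 0.882 in SC, SD, n = 8 each). The smallest p that test allows is 0.00154.

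**Figure D3:**
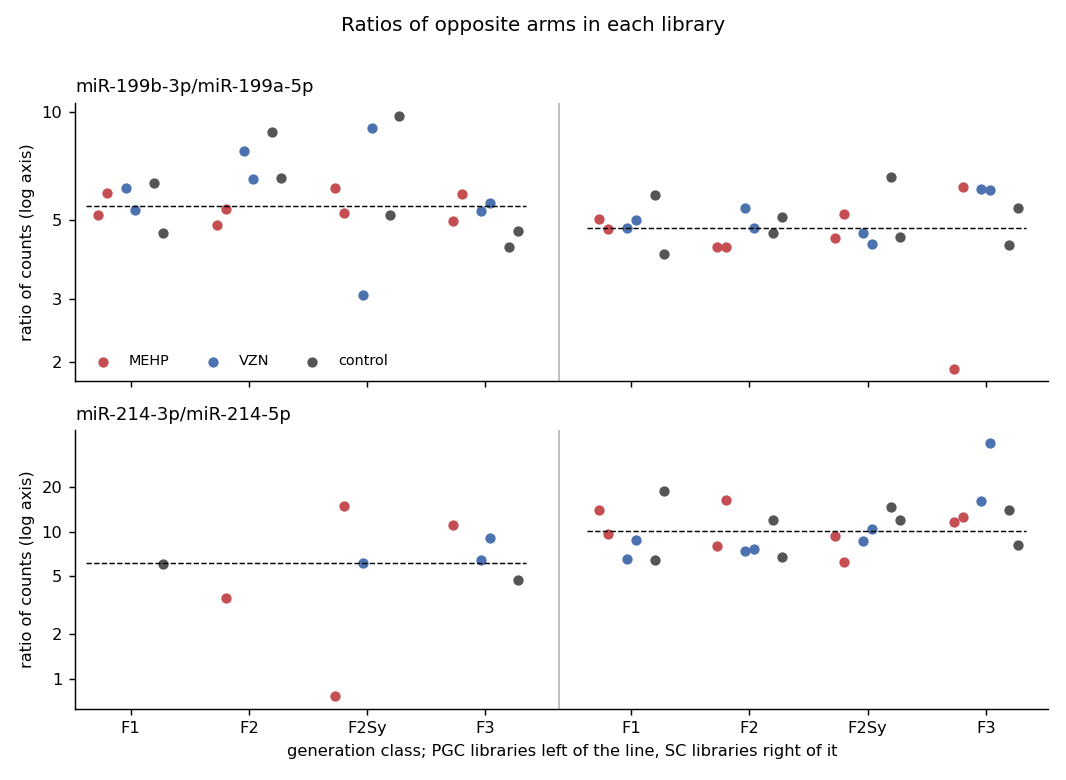
Ratio of listed counts (log axis) of miR-199b-3p to miR-199a-5p and of miR-214-3p to miR-214-5p in each library that lists both, PGC left and SC right; points are libraries and dashed lines the median of a fraction. MEHP SC F3 replicate 1 lies lowest in the upper panel at 1.92, and VZN SC F3 replicate 2 highest in the lower panel at 40.0.

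The study's main question was whether exposure of the founding females changed miRNAs in their descendants. Averaged over the 4 generation classes, no member was called in either fraction. In PGC libraries miR-199a-5p averaged 601 ± 404 CPM in MEHP, 649 ± 443 CPM in VZN and 480 ± 275 CPM in control (SD, n = 8 each). miR-199b-3p averaged 3215 ± 2045 CPM in MEHP, 3402 ± 1333 CPM in VZN and 2608 ± 964 CPM in control PGC libraries (SD, n = 8 each). The ranges overlapped for both.

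The mean effect of MEHP in PGC was 0.36 ± 0.31 for miR-199a-5p (95% interval -0.29 to 1.01) and 0.20 ± 0.21 for miR-199b-3p (-0.25 to 0.66) as log2 fold change over control. That of VZN was 0.44 ± 0.31 (-0.21 to 1.09) and 0.34 ± 0.21 (-0.11 to 0.79). In SC libraries the 10 mean effects on the 5 members lay between -0.17 and 0.12, and their 95% intervals between -0.56 and 0.47. edgeR called 0 of 2 members in PGC, against 0% of 303 miRNAs, and 0 of 5 in SC, against 0% of 355, for each disruptor. At an unadjusted p under 0.05 there were 0 of these member tests, and DESeq2 called 0 members and 0 miRNAs. MEHP and VZN were not shown to differ from each other either: the MEHP over VZN log2 fold changes ran from -0.14 to 0.19 with 95% intervals between -0.73 and 0.56, and edgeR and DESeq2 called 0% of miRNAs in both fractions. These backgrounds moved with single libraries, though no member was called. Without MEHP SC F3 replicate 2, edgeR called 15 of 355 miRNAs between MEHP and VZN in SC and 5 for the mean effect of MEHP in SC. Without VZN PGC F2Sy replicate 2 it called 5 of 303 between MEHP and VZN and 7 for the mean effect of VZN in PGC, and without replicate 1 of that group 3 and 2.

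Within single generation classes the largest differences from control were in F2Sy germ cells. miR-199a-5p had 623 and 1319 CPM in MEHP PGC F2Sy libraries and 1553 and 438 CPM in VZN PGC F2Sy libraries, against 295 and 236 CPM in control PGC F2Sy libraries. miR-199b-3p had 3808 and 6878 CPM in MEHP and 4774 and 3944 CPM in VZN PGC F2Sy libraries, against 1519 and 2306 CPM in control. For both strands all 4 exposed libraries lay above both control libraries of that class. The share of all miRNAs that separate in this way was not computed. Over all classes, control PGC libraries ran from 153 to 906 CPM for miR-199a-5p and from 1344 to 4223 CPM for miR-199b-3p. Those ranges take in MEHP F2Sy replicate 1 and VZN F2Sy replicate 2 for both strands.

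The log2 fold change over control in F2Sy PGC was 1.87 ± 0.63 for miR-199a-5p and 1.48 ± 0.44 for miR-199b-3p under MEHP (edgeR unadjusted p = 0.00891 and 0.00362; adjusted p = 0.506 for both). Under VZN it was 1.83 ± 0.63 and 1.08 ± 0.43 (edgeR unadjusted p = 0.0102 and 0.0234; adjusted p = 0.386 and 0.506). Neither disruptor's effect was called at an adjusted p under 0.05, and both share the same 2 control libraries. Over the alternatives tried the adjusted p ran from 0.0946 to 1.00 for both members under MEHP, from 0.0223 to 1.00 for miR-199a-5p under VZN and from 0.170 to 1.00 for miR-199b-3p under VZN.

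The VZN value of miR-199a-5p turned on 1 library. Without VZN PGC F2Sy replicate 2, which has the fewest counts of the PGC libraries, it was 2.46 and called (edgeR adjusted p = 0.0223). Without replicate 1 it was 0.49 and not called. Each of these leaves a single VZN library, assumed to vary like the other groups, and edgeR then called 16 of 303 miRNAs without replicate 2 and 19 without replicate 1.

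The marker lists in the same F2Sy germ cell libraries were uneven. Other mesenchymal miRNAs summed to 34525 and 37909 CPM in MEHP and 40613 and 45171 CPM in VZN PGC F2Sy libraries, against 29173 and 28821 CPM in control, without overlap. Gonadal somatic miRNAs summed to 2074 and 3553 CPM in MEHP and 3933 and 3536 CPM in VZN, against 1164 and 2556 CPM in control, and germ cell miRNAs to 166421 and 154121 CPM in MEHP and 225793 and 163048 CPM in VZN, against 184769 and 206403 CPM in control. Their part in the F2Sy values of the family was not tested.

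In the other germ cell classes the differences from control were smaller and of either sign. In F1, miR-199a-5p had 407 and 203 CPM in MEHP and 243 and 643 CPM in VZN libraries, against 469.8 and 692 CPM in control, and its log2 fold changes were -0.91 ± 0.62 and -0.42 ± 0.61. In F2 it had 315 and 398 CPM in MEHP and 323 and 288 CPM in VZN libraries, against 153 and 326 CPM in control (0.61 ± 0.61 and 0.41 ± 0.61). In F3 it had 1128 and 418 CPM in MEHP and 976 and 726 CPM in VZN libraries, against 759 and 906 CPM in control (-0.13 ± 0.61 and -0.05 ± 0.61). The MEHP libraries lay below both controls in F1 and on both sides of them in F3. miR-199b-3p had log2 fold changes of -0.88 ± 0.43 (MEHP) and -0.35 ± 0.43 (VZN) in F1, 0.11 ± 0.43 and 0.39 ± 0.43 in F2, and 0.10 ± 0.43 and 0.23 ± 0.43 in F3.

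In somatic cells the class effects were of either sign. Over 8 comparisons and 5 members, the 40 log2 fold changes ran from -0.80 to 1.07. The highest was that of miR-214-3p under VZN in F3, with 3929 and 8994 CPM in VZN SC F3 libraries, against 4083 and 2511 CPM in control, so that the groups overlapped. It was 1.07 ± 0.47 (edgeR unadjusted p = 0.0383, adjusted p = 0.906) and 0.31 (edgeR adjusted p = 0.997) without VZN SC F3 replicate 2. miR-199b-3p in MEHP SC F3, with 14064 and 31153 CPM in MEHP against 30779 and 33243 CPM in control libraries, had -0.42 ± 0.28 (edgeR adjusted p = 0.536). Without MEHP SC F3 replicate 2 it was -1.18 and called (edgeR adjusted p = 0.00191), when 1 library, replicate 1, stood for the group and 81 of 355 miRNAs were called, and without replicate 1 it was 0.08 (edgeR adjusted p = 0.985). Replicate 1 had the fewest listed miRNAs of the SC libraries.

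Over the 16 class comparisons edgeR called 0 of 56 member tests, and 5 had an unadjusted p under 0.05: the 4 of F2Sy germ cells and miR-214-3p in VZN SC F3. Over all miRNAs it called 0% in 15 of the comparisons and 0.33% (1 of 303, miR-652-3p, named after its value was seen) for VZN in PGC F2Sy. DESeq2 called 0 members, and over all miRNAs 1 for VZN in PGC F2Sy, 2, 1 and 6 for MEHP in SC F2, F2Sy and F3, and 1 each for VZN in SC F1 and F2Sy. The F2Sy effect minus the F2 effect, which sets exposure of both progenitors against the female line, was 1.26 ± 0.87 (MEHP) and 1.42 ± 0.87 (VZN) for miR-199a-5p and 1.37 ± 0.61 and 0.69 ± 0.61 for miR-199b-3p in PGC, with edgeR adjusted p-values of 0.856 or more. In SC these differences ran from -1.21 to 0.22 over the 5 members, and edgeR called 0% of miRNAs in all 4 comparisons, with 1 member test at an unadjusted p under 0.05. DESeq2 called 0 members there, and over all miRNAs 1 for VZN in PGC and 5 for MEHP in SC. Without replicate 1 or 2 of VZN PGC F2Sy, edgeR called 15 or 11 of 303 miRNAs for VZN in PGC, no member among them.

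**Figure D4:**
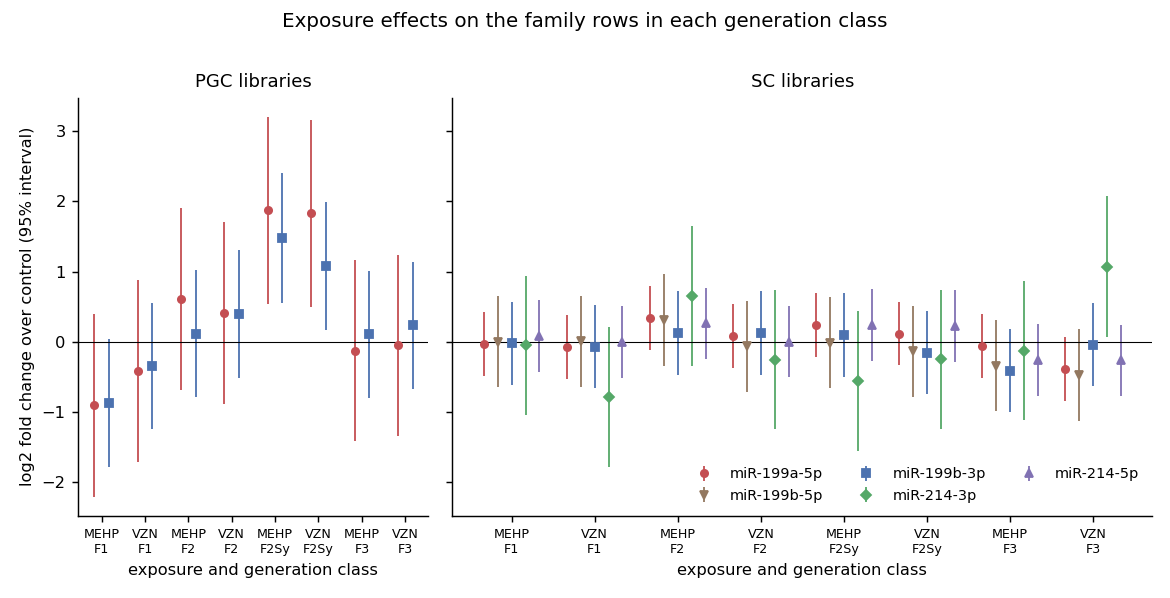
Log2 fold change over control of each member in each generation class under MEHP and VZN, with 95% intervals from edgeR, PGC libraries left and SC libraries right. The 4 values above 1 in F2Sy germ cells (1.87, 1.48, 1.83 and 1.08) have intervals above 0 before adjustment, and none was called after adjustment over all miRNAs.

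With the 3 exposures pooled, germ cell medians of the 2 miR-199 strands were lowest in F2 and highest in F3. Within an exposure the order differed: in MEHP PGC the median of miR-199a-5p was 305 CPM in F1, 357 CPM in F2, 971 CPM in F2Sy and 773 CPM in F3. Over all exposures miR-199a-5p had a lowest, median and highest value of 203, 439 and 692 CPM in the 6 F1 libraries, 153, 319 and 398 CPM in F2, 236, 530.4 and 1553 CPM in F2Sy, and 418, 833 and 1128 CPM in F3. F2 and F3 did not overlap, by the small step from 398 to 418 CPM, and the other classes overlapped with both. The share of all miRNAs with F2 and F3 apart was not computed. miR-199b-3p had 1207, 2545 and 3422 CPM in F1, 1344, 2001 and 2513 CPM in F2, 1519, 3876 and 6878 CPM in F2Sy, and 2463, 4134 and 5596 CPM in F3, with all classes overlapping. The joint edgeR test of the classes over all exposures, added after the data were seen, gave unadjusted p = 0.00647 and 0.00193, and adjusted p = 0.438 for both, and called 0% of 303 miRNAs, 32 of which had an unadjusted p under 0.05.

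Without VZN PGC F2Sy replicate 2, which leaves 1 library in that group, that joint test called both strands. How many of the 303 miRNAs it then called was not counted, so these calls have no background to be set against. Among control PGC libraries alone the classes gave edgeR unadjusted p = 0.0318 and 0.0796 (adjusted p = 0.991 for both). The joint tests of whether an exposure effect differed between classes had edgeR adjusted p-values of 0.986 (MEHP) and 0.996 (VZN) for both strands in PGC and of 0.775 or more for the 5 members in SC. With all libraries of a fraction in the fit, all of these joint tests called 0% of miRNAs, those of the SC classes included. DESeq2 was not run on them. In SC the joint test of the classes over all exposures had edgeR adjusted p-values of 0.480 or more. It called miR-199b-3p only without MEHP SC F3 replicate 2, which leaves 1 library in that group. How many of the 355 miRNAs it then called was not counted.

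The members did not move as a single block between libraries. In PGC libraries log2 CPM of miR-199a-5p and miR-199b-3p had Pearson r = 0.922 and Spearman rho = 0.929 over 24 libraries (permutation p = 1e-05 for each, the smallest that 100000 permutations can give; adjusted over 11 pairs of members, p = 5.5e-05 and 0.00011), and r = 0.914 without the 2 libraries farthest from the median. In SC libraries the same pair had r = 0.185 and rho = 0.260 (adjusted permutation p = 0.617 and 0.295). There the rows that went together were miR-199a-5p with miR-199b-5p (r = 0.870, rho = 0.786, adjusted permutation p = 5.5e-05 and 0.00011; r = 0.817 without the 2 farthest), miR-199a-5p with miR-214-5p (r = 0.700, rho = 0.706, adjusted permutation p = 0.00055 and 0.000843; r = 0.697) and miR-199b-5p with miR-214-5p (r = 0.666, rho = 0.656, adjusted permutation p = 0.00104 and 0.0019; r = 0.622). These are the 5p strands of the family. miR-199a-5p matches the Mir199b hairpin except for 1 of 23 bases, and how reads were divided between the 2 miR-199 5p rows was not tested. The 2 strands of the miR-214 hairpin had r = 0.154 and rho = 0.191 (adjusted permutation p = 0.649 and 0.406). The libraries of a fraction span all exposures and classes, and with group means removed r was 0.817 for the PGC pair and 0.868, 0.656 and 0.539 for the 3 SC pairs.

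The spread between libraries also differed among members. The biological coefficient of variation fitted by edgeR in SC was 0.333 for miR-214-3p, above 78.9% of the 355 miRNAs, and 0.175 for miR-199a-5p, above 8.17% of them. In PGC it was 0.421 for miR-199a-5p, above 87.8% of 303 miRNAs, and 0.323 for miR-199b-3p, above 67.0%. The 2 libraries of a PGC group differed by up to 3.55 times for miR-199a-5p (VZN F2Sy) and up to 35.7 times for miR-214-3p (MEHP F2Sy, 23.4 and 836 CPM). In SC the largest difference between the 2 libraries of a group was 1.58 times for miR-199a-5p and 3.66 times for miR-214-3p (control F1).

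In PGC libraries the miR-199 strands were set beside the summed marker lists, in 10 relations over 24 libraries that share the same library totals. With other mesenchymal miRNAs, miR-199a-5p had r = 0.778 and rho = 0.838 (permutation p = 2e-05 for each; adjusted p = 0.0001 for each; r = 0.788 without the 2 libraries farthest from the median), and miR-199b-3p had r = 0.820 and rho = 0.842 (permutation p = 1e-05 for each; adjusted p = 0.0001; r = 0.852). With gonadal somatic miRNAs the values were r = 0.662 and rho = 0.674 for miR-199a-5p (adjusted permutation p = 0.000975 and 0.0009; r = 0.718) and r = 0.748 and rho = 0.749 for miR-199b-3p (adjusted permutation p = 0.0002 and 0.0003; r = 0.806). With germ cell miRNAs r was -0.235 and -0.426, with endothelial miRNAs 0.004 and 0.018, and with erythroid miRNAs 0.449 and 0.342, none of which passed (adjusted permutation p = 0.0575 or more for r and 0.0508 or more for rho). Without the 2 farthest libraries these r were -0.198 and -0.169 with germ cell, 0.063 and 0.064 with endothelial, and 0.474 and 0.620 with erythroid miRNAs, in the same order of strands. The 24 libraries span all exposures and classes, and r with group means removed was not computed for these lists. The part of somatic cells remaining in the PGC libraries was not tested.

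**Figure D5:**
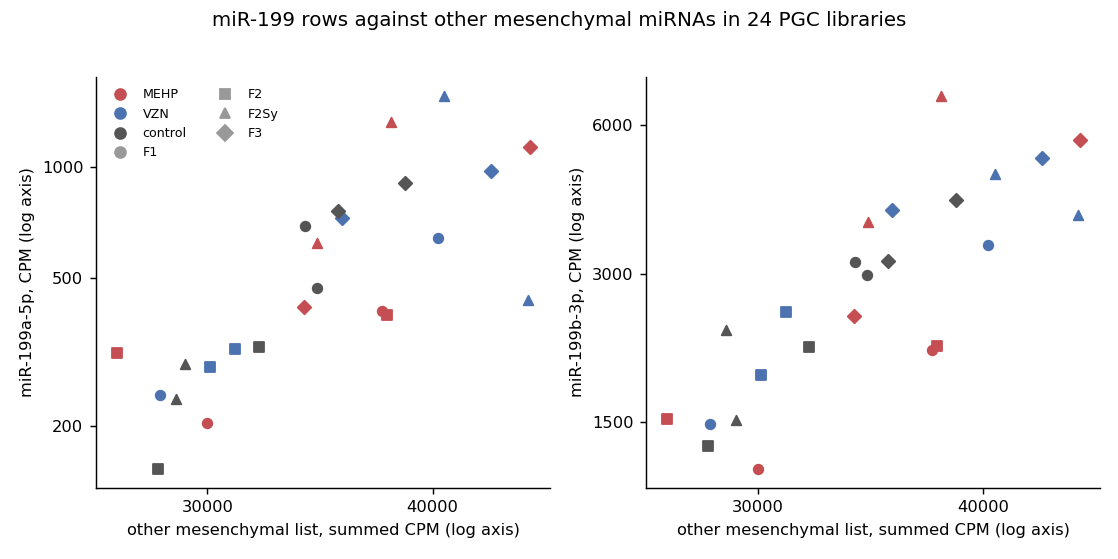
CPM of miR-199a-5p and miR-199b-3p against the summed CPM of the other mesenchymal list in the 24 PGC libraries (both axes log); each point is a library, coloured by exposure and shaped by generation class. Both strands run upward with the list (r = 0.778 and 0.820), and the control F2Sy libraries lie low on both axes while the MEHP and VZN F2Sy libraries lie to their right.

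The miRNAs most like each member were taken as the 3 non-members with the highest Pearson r of log2 CPM over the 24 libraries of a fraction and a mean of at least 10 CPM, as a description. In PGC these were miR-181a-5p (r = 0.926), miR-99a-5p (0.922) and miR-100-5p (0.914) for miR-199a-5p, and miR-99a-5p (0.940), miR-411-5p (0.902) and miR-379-5p (0.887) for miR-199b-3p, while the median r of all 301 candidates was 0.03 for each. miR-99a-5p and miR-100-5p also belong to the other mesenchymal list. In SC, miR-199a-5p and miR-214-5p had 2 of their 3 in common, miR-497a-5p (r = 0.732 and 0.715) and miR-154-5p (0.697 and 0.714), with miR-872-3p (0.633) for miR-199a-5p and miR-23a-3p (0.632) for miR-214-5p. miR-199b-5p was most like miR-154-5p (0.799), miR-708-5p (0.717) and miR-344-3p (0.640). miR-214-3p was most like miR-195a-5p (0.886), miR-3102-3p (0.878) and miR-186-5p (0.859). For miR-199b-3p they were miR-369-3p (0.887), miR-15b-3p (0.886) and miR-101b-3p (0.862), and these r were 0.363, 0.565 and 0.308 without the 2 libraries farthest from its median.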

How the data were processed

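The deposited table gives whole counts of reads, per mature miRNA (563) and library (48); per the file headers, reads of the canonical form and of isomiRs are added up. Bowtie 1.3.1 and the build mm39 are named in the submitters' processing notes, and the assignment of reads was not given in the sources used here. Of 27024 cells 7089 are blank and 0 hold a 0, so a total covers listed counts only and understates depth, and counts of reads without molecular identifiers carry more than counting error.

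A miRNA entered a fit when all libraries of that fit listed it: 251 for all 48, 303 for PGC and 355 for SC, with 24, 12 and 12 residual degrees of freedom. The count test was edgeR 4.0.16 (R 4.3.3), with TMM factors, 1 coefficient per group and a robust quasi-likelihood fit, two-sided, adjusted by Benjamini-Hochberg over all miRNAs of a fit and called at an adjusted p under 0.05. The SE of a log2 fold change was derived from its size and the F statistic of its quasi-likelihood test, and the 95% interval from that SE. The code was tested on simulated data. DESeq2 1.42.0, RLE factors, library size alone, filled blanks, other sets of libraries, a replicate block and leaving out each library were alternatives. Ratios were tested by exact permutation within classes and correlations by 100000 permutations in Python 3.11.15 with SciPy 1.17.1. The design had named ratios with miR-199a-3p; miR-199b-3p was used in its place. Every member with a row was named, and non-members by likeness. Members, marker lists and tests were chosen with earlier results of these data known. Replicate numbers were not used to pair libraries in the main fits, so a pool shared by a PGC and an SC library is not modelled there. Chi-square tests of the counts separated every pair of replicates.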

Additional observations from a re-analysis of the deposited data

Results flagged for a closer look

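In 8 of 51 sets of libraries of 1 exposure and fraction, 1 library stood apart from the others by a gap, relative to the range of the set, above the 95% limit of Dixon's test. Chance alone would mark about 1 in 20 independent sets. These sets are not independent, since the ratios reuse the levels and the same library can be marked in several sets. The number marked therefore cannot be set against that share. Of the 8 sets, 6 involved the F3 somatic libraries of an exposed lineage. In MEHP SC, miR-199b-3p was lowest in F3 replicate 1 at 14063.9 CPM, with the next library at 30103 CPM, and miR-199a-5p was lowest in F3 replicate 2 at 5059.5 CPM, with the next at 7008 CPM. In the same F3 replicate 1 the ratio of miR-199b-3p to miR-199a-5p was 1.92 (next 4.2) and that to miR-214-5p was 58.1 (next 99.2). In VZN SC, F3 replicate 2 had miR-214-3p at 8994 CPM (next 3929 CPM) and a ratio of miR-214-3p to miR-214-5p of 40.0 (next 16.2). Among MEHP PGC libraries, F2Sy replicate 1 had a ratio of miR-199b-3p to miR-214-3p of 163 (next 37.8, 7 libraries), and F2 replicate 2 a ratio of miR-199b-3p to miR-214-5p of 74.5 (next 122, 4 libraries). Each set spans the 4 generation classes.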

How the results depend on the processing

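The fraction differences of miR-199a-5p and miR-199b-3p kept their direction and their calls under all alternatives run, with log2 fold changes in controls from -4.01 to -3.74 and from -3.76 to -3.50. The replicate block gave -3.87 and -3.61 there and changed no call of a member. Same-numbered libraries had a median correlation of deviations of 0.02 in PGC and 0.08 in SC. Between PGC and SC it was -0.003 (-0.455 to 0.534). With 2 libraries a group these values do not settle whether libraries are paired. The number of members called changed from 0 to 1 for VZN in PGC F2Sy and from 0 to 2 for the classes over all exposures in PGC without the 2 libraries of fewest counts or fewest miRNAs. Leaving out single libraries gave 0 to 1 for VZN in PGC F2Sy, 0 to 1 for MEHP in SC F3, 0 to 1 for the difference of the MEHP effect between classes in SC, 0 to 1 for the classes over all exposures in SC and 0 to 2 for those in PGC. The lone library left in a group is assumed there to vary like the other groups, and the cause was not tested. For the joint tests, calls over all miRNAs were not counted under the alternatives. Among values not called, the sign changed in 105 of 800 exposure and class values and 36 of 240 ratios when single libraries were left out, and in 41 of 957 and 0 of 15 under the other alternatives; of 22 correlations recomputed, 1 changed sign and none its call. Over all miRNAs, without the same 2 libraries edgeR called 16 for VZN in PGC F2Sy, against 1, and against 0 it called 7 for the mean VZN effect in PGC, 11 for the VZN F2Sy minus F2 difference in PGC, 5 for MEHP over VZN in PGC and 5 for the change of the fraction difference with VZN. Scaling by library size alone moved the median of all miRNAs by 0.11 for VZN in PGC F2Sy and by 0.19 for the VZN F2Sy minus F2 difference in PGC. A sum of miR-199a-3p and miR-199b-3p could not be run, since miR-199a-3p had no row. Blanks and 2 libraries a group limit all of these: 3 members have no test between fractions without filling, and a class effect of PGC had an SE of 0.43 to 0.63.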
